A study of Drosophila melanogaster with 2 samples.

Results

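The genes described here encode proteins of the Polycomb group and the trithorax group, and the peaks of fd102C, a transcription factor with a fork head domain, were described at and around their transcription start sites (TSSs). There are 10 of them among 13945 protein-coding genes of the 6 main chromosome arms: ph-p, ph-d, Pc, Psc, Su(z)2, E(z), Sce, Scm, pho and trx. They were selected on gene identity with the peaks of these data already known, including the second strongest peak of the whole set at ph-p, so the counts and signals below are descriptions and carry no test. All 10 were found in the annotation by symbol.

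Polycomb group proteins keep developmental genes such as the Hox genes silent, and trithorax group proteins keep them active, through many cell divisions. In Drosophila, Polycomb repressive complex 2 (PRC2) methylates histone H3, Polycomb repressive complex 1 (PRC1) binds such chromatin and ubiquitinates histone H2A, and Pho is a DNA-binding protein that helps to anchor both at Polycomb response elements. The products are present in the early embryo, where many are supplied by the mother before the zygotic genes act.

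Chromatin immunoprecipitation and sequencing (ChIP-seq) had been carried out on whole Drosophila melanogaster embryos, male and female together, collected at 2 to 6 h. The embryos were of 1 transgenic line in which GFP is joined to the C-terminus of fd102C, and the 2 samples, both of that line, are biological replicates of 1 group, so no condition is compared with another. The values come from 4 peak lists: 1 for each replicate, 1 for both pooled, each with 30000 entries that include background, and 1 of the 2031 pooled peaks that passed the authors' reproducibility threshold, called thresholded here. Each peak has a summit and a signal, which is the authors' own value on a scale that is not stated. Signals are compared only within a list. Ranks, where 1 is the highest, are set side by side between lists as description only.

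The pooled signals ran between 38.5 and 2068 with a median of 51.6, and the thresholded ones began at 126 with a median of 181. Replicate 1 had signals between 25.5 and 1230, and replicate 2 between 18.2 and 854. The depth of sequencing is unknown, and a peak list holds no expression values with which the embryonic stage could be checked. The tagged gene fd102C itself held no thresholded summit, and none lay within 1 kb of its TSS, while 7 pooled summits lay in it. Because whole embryos were used, strong binding in few cells and weak binding in many cannot be told apart.

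The sequences on which the account of ph-p and ph-d rests are shown first. ph-p and ph-d are tandem copies on the X chromosome. The strongest peak of any of the 10 genes had its summit in ph-p DNA with few or no aligned ph-d bases. Which of these held depended on the gap penalty of the alignment. The ph-p line is chrX:2137227-2137503 and the ph-d line is chrX:2123659-2123738, both dm6, plus strand, from the RefSeq genome sequence. Capitals in the ph-p line mark the 197 bases at 2137267 to 2137463 that were aligned with no ph-d base. This single stretch is from an alignment with a costlier gap opening, added after the data had been seen. Capitals in the ph-d line mark the 2 neighbouring bases between which that stretch would lie.
ph-p: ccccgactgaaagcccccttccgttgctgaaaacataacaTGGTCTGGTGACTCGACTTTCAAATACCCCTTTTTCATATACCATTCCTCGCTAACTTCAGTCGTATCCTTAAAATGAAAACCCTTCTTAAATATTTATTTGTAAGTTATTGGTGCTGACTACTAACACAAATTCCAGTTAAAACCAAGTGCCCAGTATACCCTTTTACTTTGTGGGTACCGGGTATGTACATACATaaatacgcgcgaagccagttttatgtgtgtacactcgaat
ph-d: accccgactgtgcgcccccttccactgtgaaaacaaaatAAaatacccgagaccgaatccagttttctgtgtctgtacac

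The third sequence is the window of 201 bases around the strongest summit at ph-d, chrX:2123974-2124174, plus strand, with no capitals because it held no fork head type site. The line after it is the site nearest to the ph-p summit, chrX:2137349-2137375, plus strand, with the site in capitals, which is a word of the fork head type on the minus strand.
ph-d: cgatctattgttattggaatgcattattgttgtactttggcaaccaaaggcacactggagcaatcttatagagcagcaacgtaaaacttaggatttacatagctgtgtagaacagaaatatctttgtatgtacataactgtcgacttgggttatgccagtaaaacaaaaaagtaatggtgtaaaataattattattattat
ph-p: ccttcttaaaTATTTATttgtaagtta

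Of the 10 genes, 5 had a thresholded summit within 1 kb of a TSS: ph-p, ph-d, Psc, E(z) and trx. The share of protein-coding genes with such a summit was 9.08%. The 10 genes had 1 to 3 TSSs each, and this share is not matched for the number of TSSs per gene. Counting the gene with 5 kb on each side, Pc joined them, which made 6 of 10, against 23.9% of all protein-coding genes. These widened spans had a median of 20.3 kb (11.6 to 33.5 kb) for the 10 genes and 12.2 kb for all protein-coding genes, so the shares are not matched for length. In the pooled list 9 of 10 had a summit within 1 kb of a TSS, all but Sce, against 58.6%. All 10 had a pooled summit in the widened gene, against 89.7%. They held a median of 6.5 pooled summits in that span (2 to 15), against 3 for all protein-coding genes.

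Several thresholded summits lay at the same gene in some cases. ph-p held 5 in its widened span, and Psc and trx held 3 each. Of all protein-coding genes 1.56% held 3 or more, and 0.265% held 5 or more. One summit, between ph-p and ph-d, lay in the spans of both, so the 10 genes had 13 distinct thresholded summits.

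**Figure D1:**
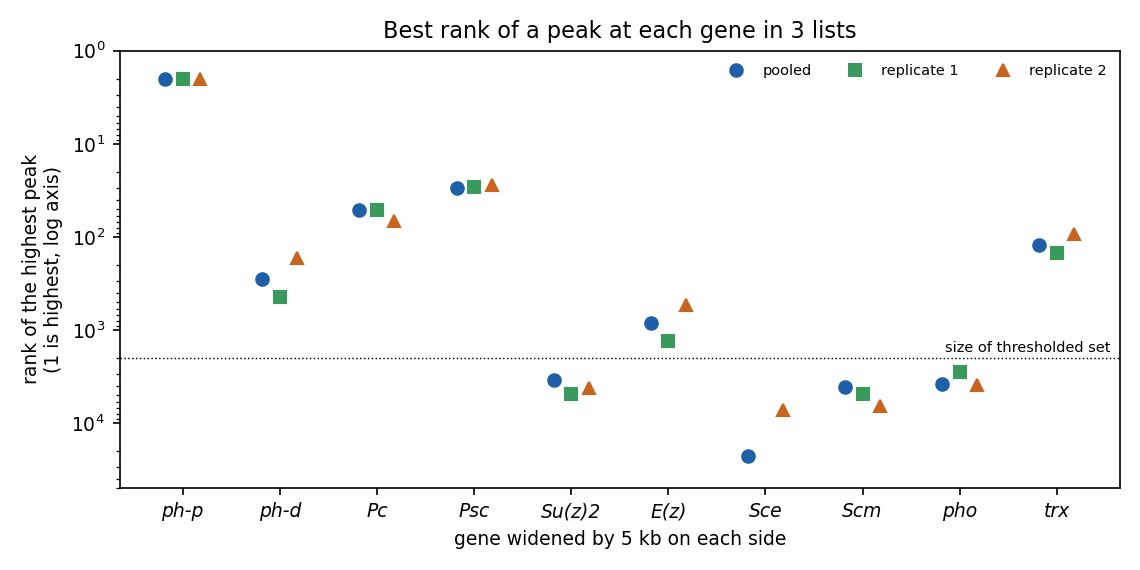
Rank (log axis, 1 at the top) of the highest peak in each gene widened by 5 kb, in the pooled list, replicate 1 and replicate 2. The 6 genes above the dotted line, which marks the 2031 thresholded peaks, ranked between 2 and 853 in the pooled list, and Sce had no peak in replicate 1.

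Each of the 13 was matched in both replicates, by a summit at most 100 bp away. Their ranks ran between 2 and 1329 in replicate 1 and between 2 and 2259 in replicate 2. All 13 stood among the 2031 highest peaks of replicate 1, and 11 did so in replicate 2. No share over all thresholded peaks is given beside these counts. The rank was better in replicate 1 for 8 summits, better in replicate 2 for 4 and the same for 1, the strongest at ph-p. Some differences were small, such as 29 in replicate 1 and 28 in replicate 2 for the strongest Psc peak. The split over all thresholded peaks is not given here, so 8 against 4 is not read as a trait of these genes. By position, 5 lay in an intron of one of the 10 genes, 4 in a 5′ UTR exon, 2 in an intron of another gene and 2 outside genes. The weakest of the 13 in the pooled list was the summit at the trx TSS, with a signal of 150 and rank 1456, where the lowest thresholded signal was 126. The highest that missed the threshold were summits at the ph-d TSS with 119, in trx with 115 and upstream of ph-d with 114. The rank plot of the 10 genes shows this split between the 6 genes with thresholded peaks and the other 4. Thresholded peaks are pooled peaks chosen for reproducibility between the replicates, so the plot is not a separate result.

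ph-p and ph-d (polyhomeotic proximal and distal) encode subunits of PRC1 with a SAM domain, through which such proteins polymerise. ph-p (FBgn0004861) lies on the minus strand of the X chromosome at 2126210 to 2138371 and has TSSs at 2136622, 2136855 and 2138371. Its strongest peak, at 2137202 to 2137505, had a signal of 1679 and rank 2 in the pooled list. Replicate 1 gave it a signal of 930 and replicate 2 a signal of 758, with rank 2 in each. The summit at 2137353 lay in the intron of the longest transcript, 498 bp upstream of the TSS at 2136855 and 1018 bp downstream of the one at 2138371. The peak is therefore intronic for the distal start and promoter-proximal for the middle one.

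The next peak of ph-p, at 2137737 to 2138025, had a pooled signal of 576 and rank 66. In replicate 1 its signal was 347 (rank 59) and in replicate 2 it was 230 (rank 79). It lay in the 5′ UTR exon of the longest transcript, 455 bp from its TSS. Another peak, in an intron, 1267 bp from the TSS at 2136622, had a pooled signal of 213 (rank 750), with 139 in replicate 1 and 73.3 in replicate 2. One more, 3512 bp upstream of ph-p, lay in an intron of D2hgdh and 394 bp from a D2hgdh TSS. Its pooled signal was 160 (rank 1277), and with 54.2 and rank 2259 it was the lowest of the 13 in replicate 2. D2hgdh names a metabolic enzyme, a dehydrogenase, and the lists do not say which of these neighbours a peak belongs to.

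ph-d (FBgn0004860) lies downstream on the same strand, at 2115727 to 2123286, with TSSs at 2121792 and 2123286. Its only thresholded peak, at 2123894 to 2124253, lay 788 bp upstream of the TSS at 2123286, between the copies. It had a pooled signal of 336 (rank 281), 156 (rank 448) in replicate 1 and 178 (rank 169) in replicate 2. It ranked better in replicate 2, whereas the 3 ph-p peaks below the strongest ranked better in replicate 1. A weaker summit lay 2 bp from that TSS, with a pooled signal of 119 (rank 2265), 82.8 in replicate 1 and 51.6 in replicate 2.

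**Figure D2:**
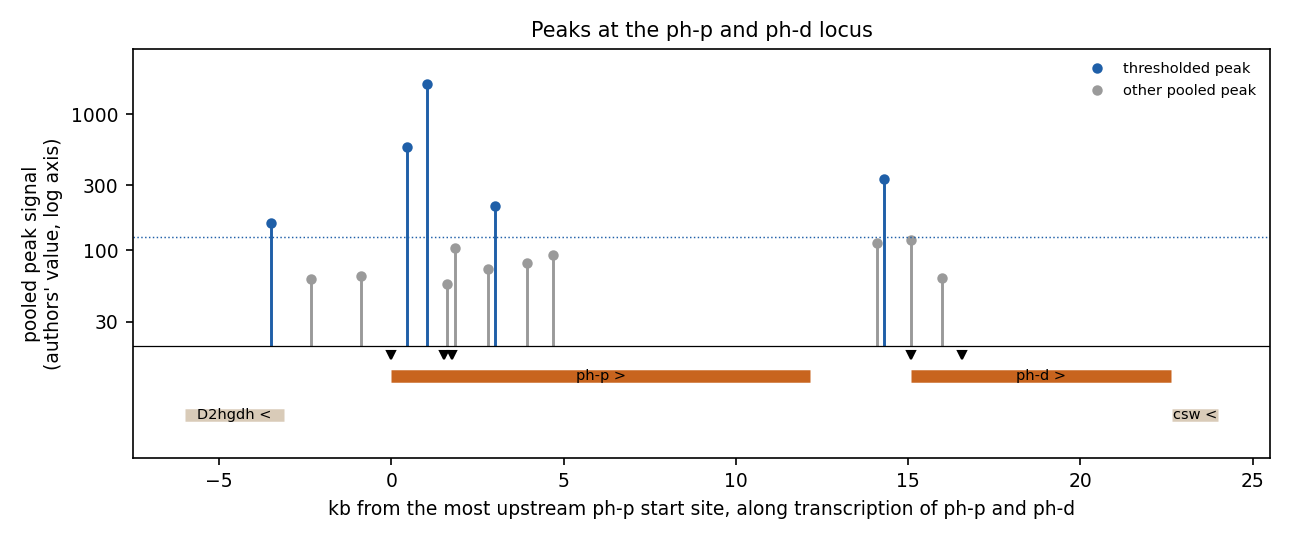
Pooled peaks along the ph-p and ph-d locus, by kb from the most upstream ph-p TSS in the direction of transcription, with signal on a log axis. Blue peaks are thresholded, grey ones are not, triangles mark TSSs, bars mark genes and the dotted line is the lowest thresholded signal of 126. The highest peak, 1679, stands between the upstream and the middle TSS of ph-p, and the only thresholded peak at ph-d, 336, stands just upstream of it.

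The map of the locus shows 5 thresholded peaks, 4 of them at or near the upstream end of ph-p. The rest of ph-p, which holds most of its coding sequence, had no thresholded peak, and neither had the body of ph-d. Many positions of the copies can be aligned, but not all peak summits had a partner base in the other copy. The encoded proteins have 1589 (ph-p) and 1537 (ph-d) residues, and 1351 of 1513 aligned residues were identical (89.3%). In DNA, the longest block of similarity by BLAST joined 2126824 to 2131227 of ph-p with 2116869 to 2121323 of ph-d at 92.0% identity. A second region holds the promoters. Over 1553 bp of ph-p and 1426 bp of ph-d there, 1267 bases were aligned and 89.0% of them were identical. The BLAST blocks in this region were 90.7%, 70.5% and 81.0% identical, in order going upstream. Gap positions count in the BLAST percentages, the 92.0% included, but not in the 89.0%, so these measures are not alike. The ph-d TSS at 2123286 was aligned exactly with the ph-p TSS at 2136855, 0 bp apart, so positions can be counted from this shared start.

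Counted so, the thresholded ph-p summits lay 498 and 1061 bp upstream of the shared start, and the thresholded ph-d summit lay 788 bp upstream. In the 101 bases around the strongest ph-p summit, 5 bases were aligned with ph-d. In that alignment, ph-p runs of 94 and 103 bases were without ph-d partners. With a costlier gap opening, an alternative added after the data had been seen, they became the single stretch of 197 bases printed above in capitals, and no base of the window was aligned. In that form the summit lay 86 bp into the stretch, whose GC content was 37.1%, and ph-d had 0 bases between the flanking positions 2123698 and 2123699. Of the flanking bases, 32 of 39 on the left and 37 of 40 on the right were identical to ph-d. The stretch had no other match on the 6 arms by BLAST with an E value cutoff of 1e-10, which can miss short or diverged matches.

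**Figure D3:**
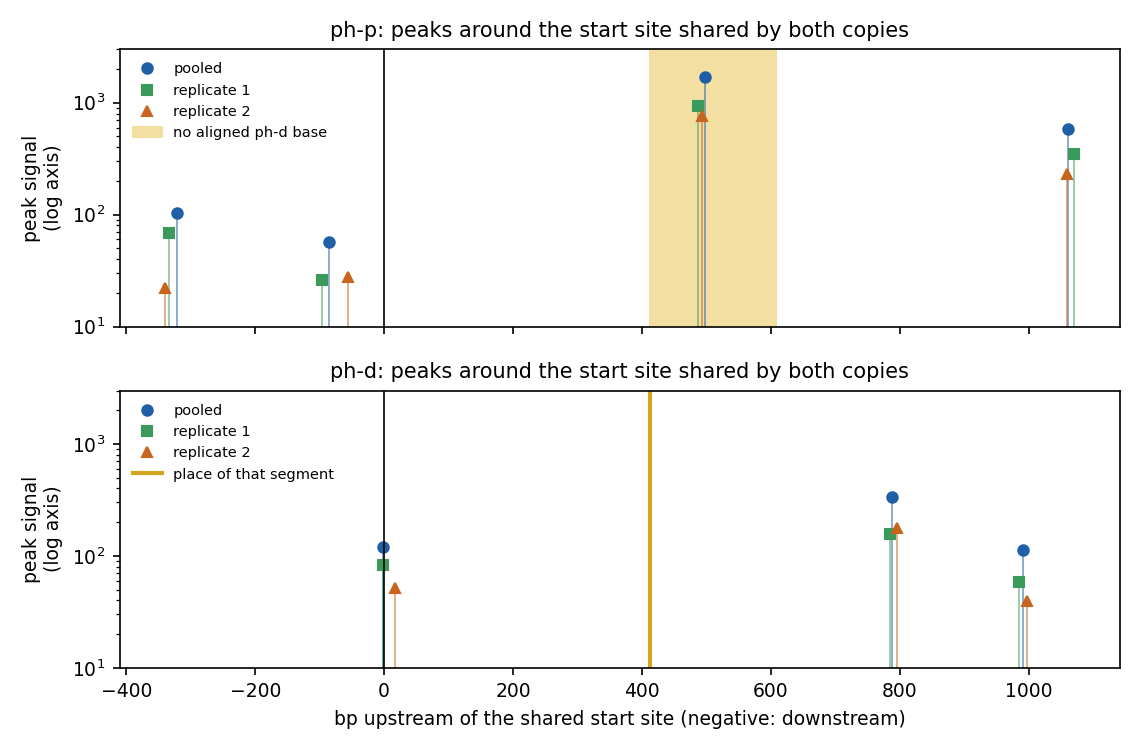
Peak summits around the start site that ph-p and ph-d share, in bp upstream of it (negative values are downstream), with signal on a log axis. The ph-p panel is on top, circles are the pooled list, squares replicate 1 and triangles replicate 2. The shaded band is the ph-p stretch without ph-d bases in the alignment with the costlier gap opening, and the gold line is its place in ph-d. The strongest ph-p summits of all 3 lists, 1679, 930 and 758, fall within the band.

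The plot of both copies shows that the 3 strongest ph-p summits, 1 in each list, lay 487 to 498 bp upstream of the shared start, all within the unmatched stretch. The ph-d summit at 788 bp upstream lay in sequence of which 59.4% of the surrounding 101 bases had a ph-p partner. Its summit base had none and lay in a ph-d run of 20 bases, 2124073 to 2124092, without ph-p partners. With a cheaper gap opening, also added after the data had been seen, it was aligned with ph-p position 2137878. By BLAST, this summit and both thresholded ph-p summits of the region lay between the blocks of similarity. The ph-p summit with signal 576 was aligned with ph-d position 2124175, which lies between the ph-d summits at 2124074 and 2124277. Near the shared start the summits of the copies were not at matching positions. The ph-d summit with signal 119 lay 2 bp from it, and 96.0% of the 101 bases around that summit were identical in ph-p. The nearest ph-p summit, with signal 56.7, lay 85 bp downstream of the shared start and was aligned with ph-d position 2123204. Reads of similar copies can be hard to place. All 36-base words within 100 bp of each of the 76 distinct pooled summits of the 10 genes occurred once in the assembly, as did 95.3% of such words over the ph-p promoter region and 94.9% over that of ph-d. These were exact words, so the count does not show how reads with mismatches were placed. No share over all pooled summits is given beside it, and the read length is not given in the sources used here.

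Among the thresholded peaks the nearest to the ph-p peak in strength were those ranked 1, 3 and 4. The first lay 205 bp from the TSS of px, with a pooled signal of 2068, and ranked 1 in both replicates. The third, nearest to hll among protein-coding genes (2920 bp from its TSS), lay in an exon of lncRNA:CR31840, with a pooled signal of 1398, rank 3 in replicate 1 and rank 6 in replicate 2. The fourth was 3913 bp from the TSS of zfh2, with 1380 and rank 4 in both replicates. Likeness here means only the order of pooled signals over 1 list.

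Pc (FBgn0003042, 3L 21306138 to 21318020, minus strand) encodes the chromodomain subunit by which PRC1 binds methylated histone H3. Its thresholded peak, at 21304439 to 21304685, was strong, with a pooled signal of 618 (rank 52), 361 (rank 51) in replicate 1 and 249 (rank 67) in replicate 2. It lay 13463 bp from the Pc TSS, beyond the 3′ end of the gene by 1581 bp. At that place it was 90 bp from a TSS of CG11309, in an intron of that gene, and within 1 kb of a TSS of CG7632. At its own TSS Pc had a pooled summit 75 bp away that missed the threshold, with a signal of 105 (rank 2874), 61.5 in replicate 1 and 46.5 in replicate 2. The count of Pc among the genes with a thresholded peak in the span thus rests on a peak at the start of other genes.

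Psc (FBgn0005624, 2R 12965997 to 12980994, minus strand) and Su(z)2 (FBgn0265623, 2R 12996501 to 13007911, plus strand) encode RING finger proteins that can each serve as a PRC1 subunit, and the genes lie head to head. Their proteins share less than the ph copies do, with 334 of 1232 aligned residues identical (27.1%). The strongest peak of the pair, at 12985072 to 12985349, lay 4194 bp upstream of Psc, and 179 bp from a TSS of lncRNA:CR44339. Its pooled signal was 756 (rank 30), with 442 (rank 29) in replicate 1 and 323 (rank 28) in replicate 2. A peak at the Psc TSS, 59 bp from it, had a pooled signal of 162 (rank 1250), with 106 and 66.8 in the replicates. The last, in an intron 5074 bp from the nearest Psc TSS, had 170 (rank 1143), with 105 and 62.0.

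Su(z)2 held 14 pooled summits in its widened span and no thresholded one. The highest of them, 4738 bp upstream, had a pooled signal of 95.7 (rank 3471), and the summit 58 bp from its TSS had 59.6 (rank 10429). Replicate 1 had no summit within 100 bp of that start-site summit, and replicate 2 had one with 33.8. Of this pair of paralogues, Psc alone had thresholded peaks in its widened span, whereas each of the ph copies had at least 1.

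Sce encodes the RING finger protein that ubiquitinates histone H2A in PRC1, and Scm encodes a SAM domain protein that binds to PRC1. Neither had a thresholded summit in its widened span. Sce (FBgn0003330, 3R 27680431 to 27682029, minus strand) had 2 pooled summits in its widened span, the higher with a signal of 43.7 (rank 22563), 3170 bp beyond the gene and 261 bp from a TSS of Hsdl2. No pooled summit lay within 1 kb of its TSS. Replicate 2 alone had one there, 98 bp away, with a signal of 32.6 (rank 7343). Scm (FBgn0003334, 3R 9633359 to 9637611, minus strand) had its highest pooled summit 128 bp from a TSS of SpdS, with 88.7 (rank 4077). The pooled summit within 1 kb of its own TSS, 926 bp away in a coding exon, had 40.4 and no matching summit in either replicate, while replicate 2 had one with 23.1 at 62 bp from the TSS.

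E(z) (FBgn0000629, 3L 10634575 to 10638130, minus strand) encodes the methyltransferase of PRC2. Its thresholded peak, at 10637900 to 10638259, had its summit 50 bp from the TSS at 10638130, in the 5′ UTR exon. The pooled signal was 198 (rank 853), with 93.0 (rank 1329) in replicate 1 and 111 (rank 538) in replicate 2. A TSS of Cnep1r2, a neighbouring gene, also lay within 1 kb. Of the 6 genes with a thresholded peak in their span, the best rank of E(z) in the pooled list was the weakest.

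The E(z) window also held more fork head type sites than the windows at the other genes, 4 within 100 bp of the summit. As many were found in 1.13% of all thresholded windows, and E(z) was singled out for this after its values had been seen. The first 3 lie within 29 bases of an intron, chr3L:10638003-10638031, plus strand, dm6, printed with the sites in capitals.
E(z): ATAAATAtaatATAAATAatacATAAATA

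pho (FBgn0002521, chromosome 4, 1172469 to 1181628, minus strand) encodes the DNA-binding protein of the Pho repressive complex (PhoRC). It had no thresholded summit. Its best pooled summit lay 319 bp upstream of the TSS with a signal of 91.5 (rank 3801), 64.4 (rank 2863) in replicate 1 and 42.6 (rank 3874) in replicate 2. pho thus had a summit at its promoter in the pooled list and in both replicates, below the threshold.

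trx (FBgn0003862, 3R 14263358 to 14286903, minus strand) encodes a histone H3 methyltransferase that counteracts Polycomb silencing, and at 23.5 kb it is the longest of the 10 genes. It held 3 thresholded peaks in its upstream part. The strongest, at 14278039 to 14278174, lay in an intron 8799 bp from the TSS, with a pooled signal of 459 (rank 124), 245 (rank 150) in replicate 1 and 215 (rank 93) in replicate 2. The next, at 14283727 to 14284086, also in an intron, 2996 bp from the TSS, had 256 (rank 522), with 160 and 101. The peak at the TSS, 58 bp from it in the 5′ UTR exon, had 150 (rank 1456), with 97.0 (rank 1210) in replicate 1 and 55.0 (rank 2184) in replicate 2. Without replicate 1, that is among the 2031 highest peaks of replicate 2, the trx TSS peak was not included and the count at TSSs was 4 of 10, against 9.61% of all protein-coding genes.

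**Figure D4:**
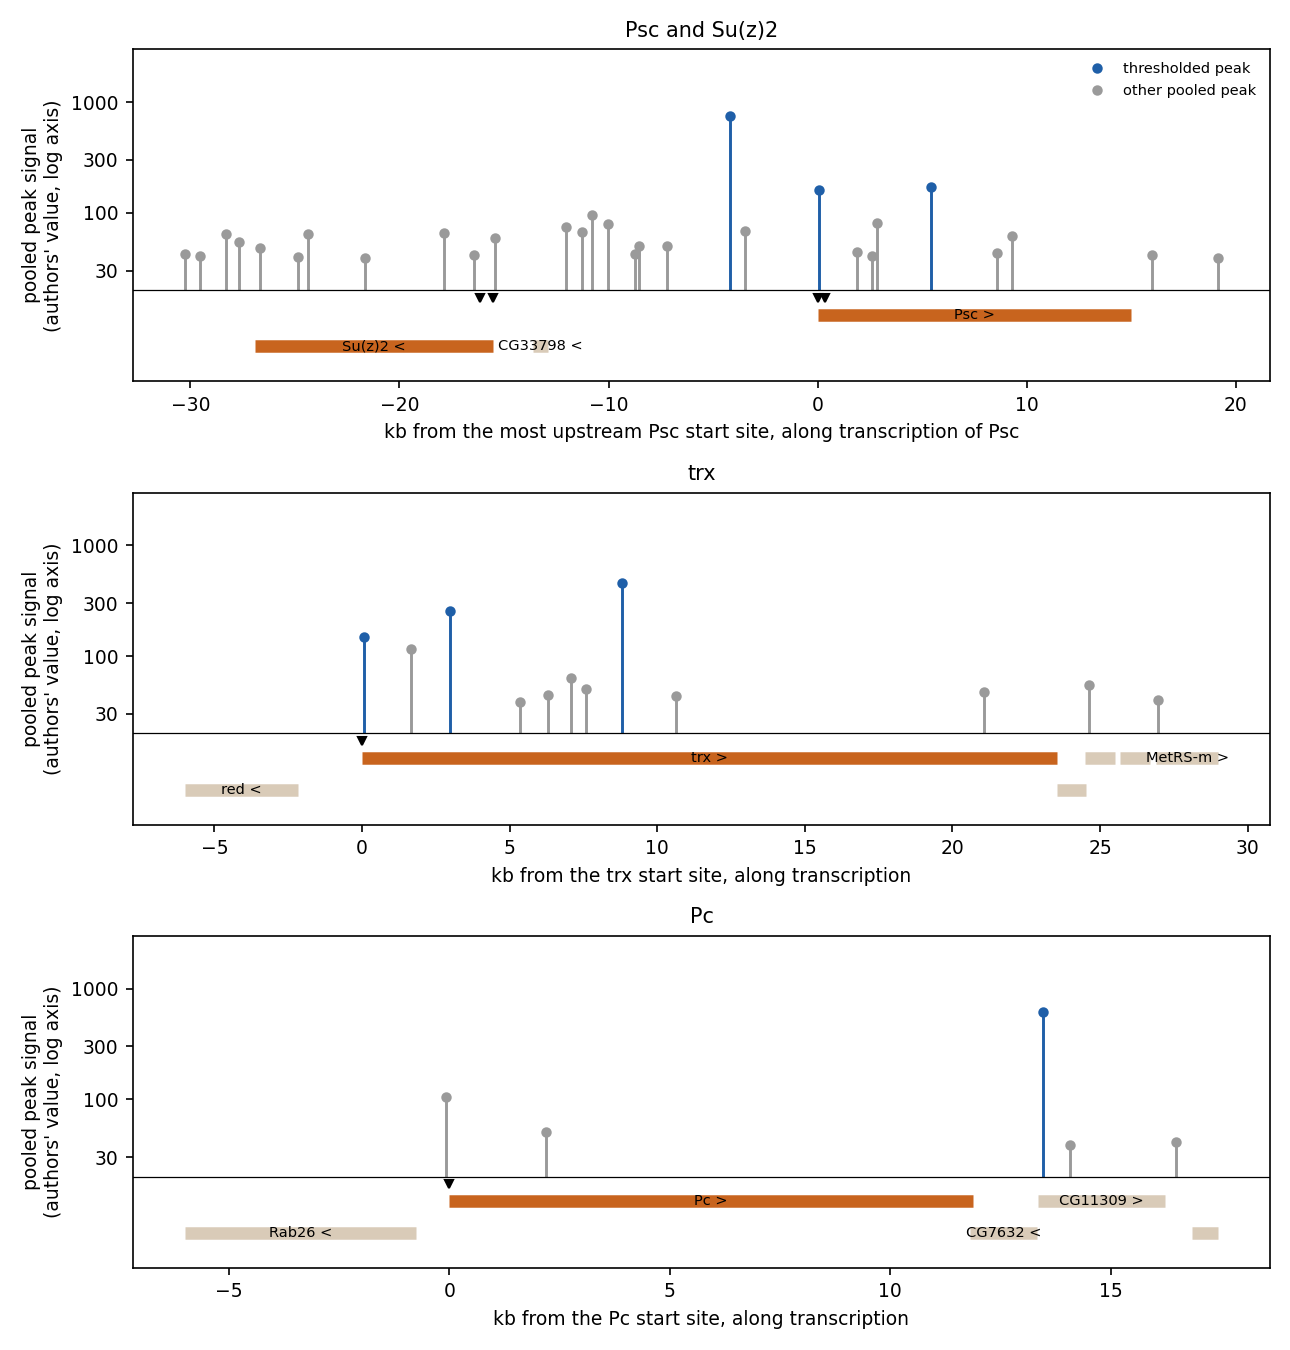
Pooled peaks along Psc with Su(z)2, along trx and along Pc, by kb from the most upstream TSS of Psc, trx or Pc in its direction of transcription, with signal on a log axis. Blue peaks are thresholded, grey ones are not, triangles mark TSSs of the genes in orange, and other genes are pale and end at the edge of the window drawn. The strongest peaks, 756, 459 and 618, stand upstream of Psc, in an intron of trx and beyond the 3′ end of Pc.

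At Psc, trx and Pc the strongest peak was away from the gene's own TSS, as the plot of these loci shows, while at E(z) it was at the TSS. The introns of trx that hold its stronger peaks had 2 GAGAG words each within 100 bp of the summit, where GAGAG is a core that GAGA factor binds. The windows, chr3R:14278004-14278204 and chr3R:14283807-14284007, plus strand, dm6, are printed with these words in capitals. In the first they stand on the minus strand and so read CTCTC, and in the second they overlap. As many were found in 8.12% of all thresholded windows.
trx: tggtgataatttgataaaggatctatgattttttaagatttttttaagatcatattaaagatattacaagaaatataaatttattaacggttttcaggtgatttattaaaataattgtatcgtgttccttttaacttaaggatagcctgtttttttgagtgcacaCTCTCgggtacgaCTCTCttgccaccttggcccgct
trx: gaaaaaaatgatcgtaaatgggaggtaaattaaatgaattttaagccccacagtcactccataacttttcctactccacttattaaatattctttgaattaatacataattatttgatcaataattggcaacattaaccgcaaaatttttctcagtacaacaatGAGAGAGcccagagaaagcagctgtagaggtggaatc

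Words of known factors were counted on both strands within 100 bp of the 13 thresholded summits, in windows of 201 bases. A word of the fork head type (ATAAACA or ATAAATA, and with G in first place GTAAACA or GTAAATA), to which fork head domain proteins commonly bind, was in 8 of 13 windows (61.5%), against 43.1% of all 2031 thresholded windows, 26.5% of the weakest 2031 pooled windows and 27.5% of 19252 distinct windows centred on TSSs. GTAAACA alone was in 2 of 13, against 9.90% of thresholded and 6.12% of TSS windows. Each of the 4 windows at ph-p with such a word had 1, and its first base on the plus strand stood 6 bp from the summit of the strongest peak, 7 bp from that of the peak in D2hgdh, 38 bp from that of the peak in the 5′ UTR exon and 97 bp from that of the other intronic peak. No fork head type word was in the windows of trx, in that of the Psc TSS or in that of ph-d.

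The core GCCAT, bound by Pho itself, was in 1 of 13 windows (7.69%), the intronic one of Psc, against 28.5% of thresholded and 30.8% of TSS windows. GAGAG was in 5 of 13 (38.5%), against 27.0% of thresholded and 25.0% of TSS windows, with 4 words at the Psc TSS, where some of them overlap. CAGGTA, bound by the early activator Zelda, was in 1 of 13, against 5.12% of thresholded windows, and CGATA, bound by the boundary protein BEAF-32, was in 3 of 13, against 27.2%. CGATA lies inside TATCGATA, bound by DREF, which was in 0 of 13, against 2.90%. The word ACACTG was in 3 of 13 (23.1%), against 18.3% of thresholded and 14.2% of TSS windows, with 2 words at the trx TSS. With 13 windows from 6 genes, 1 window more or less moves a share by 7.69 points, and a match does not show that a factor binds there. The GC content of the 13 windows was 27.9% to 55.2%, and for 10 of them it was below 37.3%, the median of all thresholded windows.

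Below the threshold, the 10 genes had 63 further pooled summits. Of these, 20 were matched in both replicates, 34 in only 1 and 9 in neither. The same shares over all pooled summits are not given here, so these counts are not read as a trait of the 10 genes. All 13 thresholded summits were matched in both, but the threshold was itself set on reproducibility.

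The wider set of Polycomb and trithorax genes was taken from a list by complex, also chosen with earlier results known, with 52 genes beside the 10, all found in the annotation. Of the 52, 11 had a thresholded summit within 1 kb of a TSS (21.2%), against 9.08% of all protein-coding genes, and 23 had one in the widened gene (44.2%), against 23.9%. As for the 10, these shares are not matched for length or number of TSSs, and some of the summits in widened genes lay at the start of a neighbouring gene. By complex, the count at TSSs was 4 of 9 for recruiters and other Polycomb factors, 5 of 10 for other trithorax genes, 1 of 10 for the BRM remodelling complex and 1 of 2 for PRC1. It was 0 of 7 for PRC2, 0 of 2 for PhoRC, 0 of 2 for the deubiquitinase complex PR-DUB and 0 of 10 for the COMPASS methyltransferase complexes. E(z) and trx, among the 10, were thus the only genes of PRC2 and COMPASS on the list with a thresholded summit at a TSS.

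**Figure D5:**
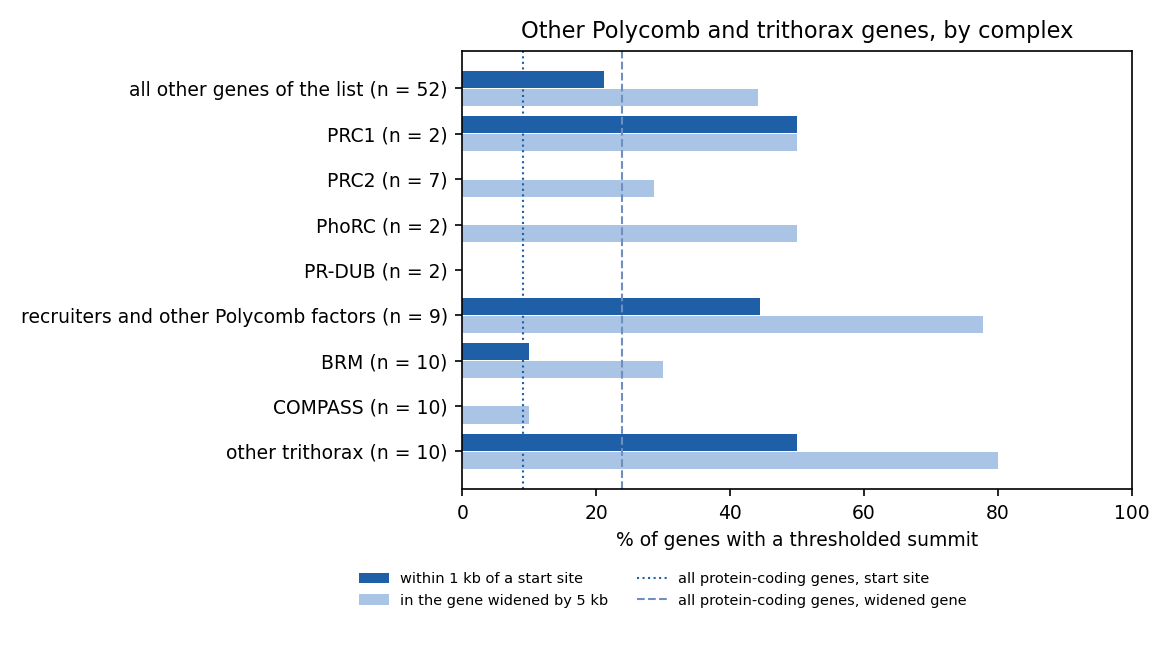
Percent of the 52 other Polycomb and trithorax genes with a thresholded summit, by complex, within 1 kb of a TSS (dark bars) and in the gene widened by 5 kb (pale bars). The dotted and dashed lines are the shares of all protein-coding genes, 9.08% and 23.9%, and the groups hold 2 to 10 genes.

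The plot by complex shows that the counts came mostly from the recruiters and the other trithorax genes. The highest signal at a TSS was 398 (rank 183) at nej, which encodes a histone acetyltransferase of the CBP type, with 210 in replicate 1 and 193 in replicate 2. The peak lay 671 bp from the nej TSS and within 1 kb of a TSS of lncRNA:CR42657. At brm, the ATPase of the BRM complex, it was 255 (rank 525), with 178 and 90.8, and a TSS of Arl1 also lay within 1 kb. At Trl, which encodes GAGA factor, it was 251 (rank 543), with 174 and 79.9, with a CG42507 TSS within 1 kb.

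Dsp1, an HMG box protein gene, had 216 (rank 726), shared with CG9921, and kis, a chromatin remodeller gene, had 195 (rank 885). Kdm2, a histone demethylase gene, had 176 (rank 1069), tna 154 (rank 1374) and fs(1)h, a gene of the BET bromodomain family, 151 (rank 1427), shared with mys. The other 3 with a thresholded summit at a TSS were cg, grh and mxc. Among the genes without one were ash1, ash2, Asx and Bap111. The strongest peaks in widened spans, named after their values had been seen, were 1020 (rank 12) for Caf1-55, 121 bp from a TSS of Art3, and 976 (rank 13) for ash1, 110 bp from a TSS of CG14100. As at Pc, both lay at the start of a neighbouring gene.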

How the data were processed

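The data are ChIP-seq peak lists of 2 biological replicates of 1 group. Replicate numbers and the assembly, dm6, are from the labels. The labels' description calls both samples input control, while the assay and antibody fields name ChIP of a transcription factor, fd102C, and they were used as ChIP. The source name gives 2 to 6 h as the age, while the age field holds an impossible number of hours. Each deposited peak has a signal value and a summit, as the authors' caller wrote them. The deposited −log10 q-value was used to break ties in rank, and the deposited p-value field was empty. Peaks were called on each replicate and on both pooled, per the deposited notes, with a separate control that was not used here. No aligner or caller is named (not given in the sources used here). Without read counts in the lists, no interval for depth can be given.

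The members and lists were chosen with earlier results of these data known, and nothing was tested. Genes and TSSs (23581 positions of 18164 genes on 6 arms) were those of Ensembl release 115, and sequence was the RefSeq genome of the same assembly. A peak was placed by its summit. Summits were matched between lists within 100 bp. Named genes are the 10, those with a TSS within 1 kb of a summit used or nearest to it, those of the peaks ranked next to that of ph-p, and in the wider list all with a summit at a TSS, 8 of them with values, and 4 without. The peaks of Caf1-55 and ash1 in widened genes were named outside this rule, after their values had been seen. Of the wider list 2 entries were matched through older symbols or spelling. Promoter regions were aligned with Biopython 1.88 (match 2, mismatch -3, gap opening -8, extension -0.5), similar blocks were found with blastn 2.17.0, and proteins were translated from annotated coding sequences. Tables were handled with pandas 2.3.3 and numpy 2.4.6 in Python 3.11.15. The counting was tested on simulated data. Alternatives were each replicate alone, the 1015 highest thresholded peaks, other windows, overlap in place of summits, nearest-TSS assignment, other match distances and other gap penalties.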

Additional observations from a re-analysis of the deposited data

How the results depend on the processing

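No paired analysis was possible because there is only 1 group. Percentages in this paragraph are shares of all protein-coding genes, or for motifs of all thresholded windows, under the same setting. Among the 1015 highest thresholded peaks the count of genes with a summit within 1 kb of a TSS was 3 (ph-p, ph-d and E(z)) in place of 5, against 4.47%. Without replicate 1 thresholded summits were at 4 TSSs (9.61%) and in 6 widened genes (24.6%), and pooled summits at 10 (58.6%) and in 10 (90.2%). Without replicate 2 thresholded summits were at 5 (8.99%) and in 6 (23.9%), and pooled summits at 8 (57.4%) and in 9 (91.0%). The gene lost at TSSs without replicate 1 was trx. The ph-p peak ranked 2 without either replicate, and summits at ph-p and ph-d in the thresholded or substitute sets numbered 4 to 6. With a TSS window of 500 bp ph-d was lost, which left 4 (7.70%), and with each summit given to the nearest protein-coding TSS Pc was lost, which left 5 (10.6%). Within 50 bp of the 13 summits, 5 windows had a fork head type word (28.1%), 1 GTAAACA (6.40%), 0 GCCAT (15.5%) and 1 GAGAG (12.7%). Within 250 bp, 4 had GCCAT (58.7%), 10 GAGAG (56.5%), 2 CAGGTA (13.5%) and 8 ACACTG (32.6%). A costlier gap opening, added after the data had been seen, left 0 aligned bases around the ph-p summit, and a cheaper one left 5. The other counts stayed within 1.5 times the values given. The lists hold no read counts, so what depth limits is unknown.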
